A study of Mus musculus with 69 samples.

Results

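Homeostatic microglia are recognised by a small set of genes, and 10 of them were followed here across the 3 count tables of the study: Cx3cr1, P2ry12, P2ry13, Tmem119, Csf1r, Sall1, Siglech, Gpr34, Selplg and Olfml3. They were taken by gene symbol, and each symbol had a row in all 3 tables, so that 10 of 54532 genes in the microglia and agonist tables and 10 of 54429 in the inhibitor table were members. All 10 passed the filter on low counts in both hippocampal tables. In cultured microglia 9 of 10 passed, and Siglech did not.

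These genes encode what a resting microglial cell uses to sense its surroundings. Cx3cr1 is the receptor for fractalkine, a chemokine that neurons present on their surface. P2ry12 and P2ry13 are receptors for ADP, with which processes find damaged cells, and Gpr34 is a receptor for lysophosphatidylserine. Csf1r binds the survival factors Csf1 and interleukin 34. Selplg is the P-selectin ligand, Siglech a sialic acid-binding lectin, Tmem119 a membrane protein used as a marker of brain-resident microglia, and Olfml3 a secreted matrix protein. Sall1 is a zinc-finger transcription factor that keeps microglial identity. The program depends on TGF-beta and Csf1r signals in the brain, is lost in part when microglia are put into culture, and recedes when they take up myelin debris. Tlr7 is an endosomal receptor for single-stranded RNA.

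The study measured RNA by 3′ sequencing in 69 mouse libraries. The 24 culture libraries were primary microglia from mice of postnatal days 1 to 3, 3 each from female and male Tlr7 knockout (TLR7:-/-, here KO) and wild-type (WT) mice, given myelin or the solvent DMSO. The 28 agonist libraries were hippocampi of WT mice given the TLR7 agonist Gardiquimod or saline, 7 for each sex and treatment, with all females 9.60 and all males 12.12 months old, so that sex and age cannot be told apart there. The 17 inhibitor libraries were hippocampi of PSUK+ mice of 5.50 to 6.85 months given a TLR7 inhibitor (5 female and 6 male) or control (3 of each sex); 1 age label gave no unit and was read as months. The labels do not expand PSUK, do not name the inhibitor, do not describe the knockout allele, and do not say whether libraries of a culture group came from separate animals, so the p-values cover the spread among these libraries alone, which may be technical. The labels call the RNA of all libraries nuclear RNA from microglia, but the summed level of 8 neuron markers was 9060 to 15500 CPM (counts scaled to the library's total) in hippocampal and 4.29 to 9.95 CPM in culture libraries, and the hippocampal ones are treated as tissue.

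Total counts per library were 15277642 to 21275491 in the cultures, 14332532 to 23477906 in the agonist and 14377831 to 21033158 in the inhibitor experiment. Levels below are CPM after TMM scaling. Log2 fold changes, their standard errors (SE) and adjusted p-values come from edgeR's quasi-likelihood test with Benjamini-Hochberg adjustment over all genes tested, and "called" means an adjusted p under 0.05. Tlr7 stood at 1.25 to 2.76 CPM in the 12 KO libraries and at 167 to 197 CPM in the 12 WT libraries, as their labels say. The summed level of pan-microglia markers in the cultures was 7570 to 8340 CPM with myelin and 7240 to 8600 CPM with DMSO. The cells are called microglia after their labels.

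RefSeq promoters, 250 bases before to 50 after the start on build GRCm38.p6, were examined for 6 of the 10 genes. Those of Tmem119, Csf1r, Gpr34 and Selplg were not examined, which does not mean that the reference lacks them. Shown are 4 of the 6, because they span the range of responses to myelin described below: Cx3cr1 fell most, P2ry12 and P2ry13 fell less, and Olfml3 rose. They lie at chr9:120068247-120068546, chr3:59262936-59263235, chr3:59210833-59211132 and chr3:103737952-103738251, all on the minus strand, and are printed 5′ to 3′ along the gene. Capitals mark GAGGAA and AGGAAGT, or their complements on the other strand, 2 overlapping forms of the site that the macrophage factor PU.1 prefers.
Cx3cr1: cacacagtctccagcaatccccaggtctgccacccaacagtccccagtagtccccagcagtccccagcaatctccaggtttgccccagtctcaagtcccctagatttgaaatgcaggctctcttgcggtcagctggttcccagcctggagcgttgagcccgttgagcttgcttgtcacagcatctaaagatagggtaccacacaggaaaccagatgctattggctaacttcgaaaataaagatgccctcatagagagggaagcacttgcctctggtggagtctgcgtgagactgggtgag
P2ry12: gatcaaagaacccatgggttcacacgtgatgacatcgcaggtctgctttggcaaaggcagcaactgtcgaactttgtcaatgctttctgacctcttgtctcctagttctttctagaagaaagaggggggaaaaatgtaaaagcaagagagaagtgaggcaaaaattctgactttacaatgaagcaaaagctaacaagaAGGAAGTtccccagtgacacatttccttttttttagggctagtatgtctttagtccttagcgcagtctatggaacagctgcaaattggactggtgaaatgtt
P2ry13: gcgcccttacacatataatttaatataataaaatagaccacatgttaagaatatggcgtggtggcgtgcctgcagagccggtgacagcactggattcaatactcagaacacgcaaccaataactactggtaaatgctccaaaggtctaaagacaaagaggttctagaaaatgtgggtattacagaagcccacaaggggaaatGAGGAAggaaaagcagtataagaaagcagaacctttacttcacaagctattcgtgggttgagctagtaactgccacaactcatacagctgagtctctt
Olfml3: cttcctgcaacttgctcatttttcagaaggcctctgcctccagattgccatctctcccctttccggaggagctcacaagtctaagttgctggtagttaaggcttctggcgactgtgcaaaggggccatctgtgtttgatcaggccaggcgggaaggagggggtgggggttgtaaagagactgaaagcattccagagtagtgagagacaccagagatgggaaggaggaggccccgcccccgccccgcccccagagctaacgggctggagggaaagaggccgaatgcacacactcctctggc
AGGAAGT was found once in the P2ry12 window and GAGGAA once in the P2ry13 window, while neither was found in those of Cx3cr1 and Olfml3. Of 32851 promoters of the same length in the table, 28.3% held GAGGAA and 9.35% held AGGAAGT on either strand, so these matches describe the windows and nothing more.

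Cx3cr1 was nearly lost from microglia given myelin. In female KO cultures it stood at 0.989, 1.08 and 1.68 CPM with myelin, against 90.3, 92.9 and 87.3 CPM with DMSO. In female WT cultures it stood at 1.40, 3.19 and 1.94 CPM with myelin, against 106, 116 and 110 CPM with DMSO. Male KO cultures held 1.09, 1.55 and 2.21 CPM with myelin, against 71.1, 83.1 and 68.6 CPM with DMSO. In male WT cultures the levels were 1.36, 1.88 and 1 CPM with myelin, against 123, 126 and 114 CPM with DMSO. Every DMSO library stood far above every myelin library, and the levels rest on 16 to 51 counts a library with myelin and 1073 to 2093 with DMSO. Of all genes tested, 46.4% to 49.3% had no overlap between myelin and DMSO libraries of a culture, so a lack of overlap alone is common here.

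The log2 fold change of Cx3cr1, myelin over DMSO, was -6.17 ± 0.17 (SE, n = 3 libraries a group) in female KO, -5.69 ± 0.15 in female WT, -5.47 ± 0.16 in male KO and -6.41 ± 0.16 in male WT cultures. The edgeR adjusted p was 2.11e-16 in female KO, 1.22e-16 in female WT, 1.08e-15 in male KO and 6.6e-17 in male WT cultures. On a linear scale Cx3cr1 was 72.1-fold lower in female KO, 51.6-fold lower in female WT, 44.2-fold lower in male KO and 85.0-fold lower in male WT cultures with myelin than with DMSO. Of 14468 genes tested, no other had a lower log2 fold change in 3 of the 4 cultures, and 1 did in male KO. In bulk RNA, fewer cells that express a gene and less RNA per cell cannot be told apart.

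**Figure D1:**
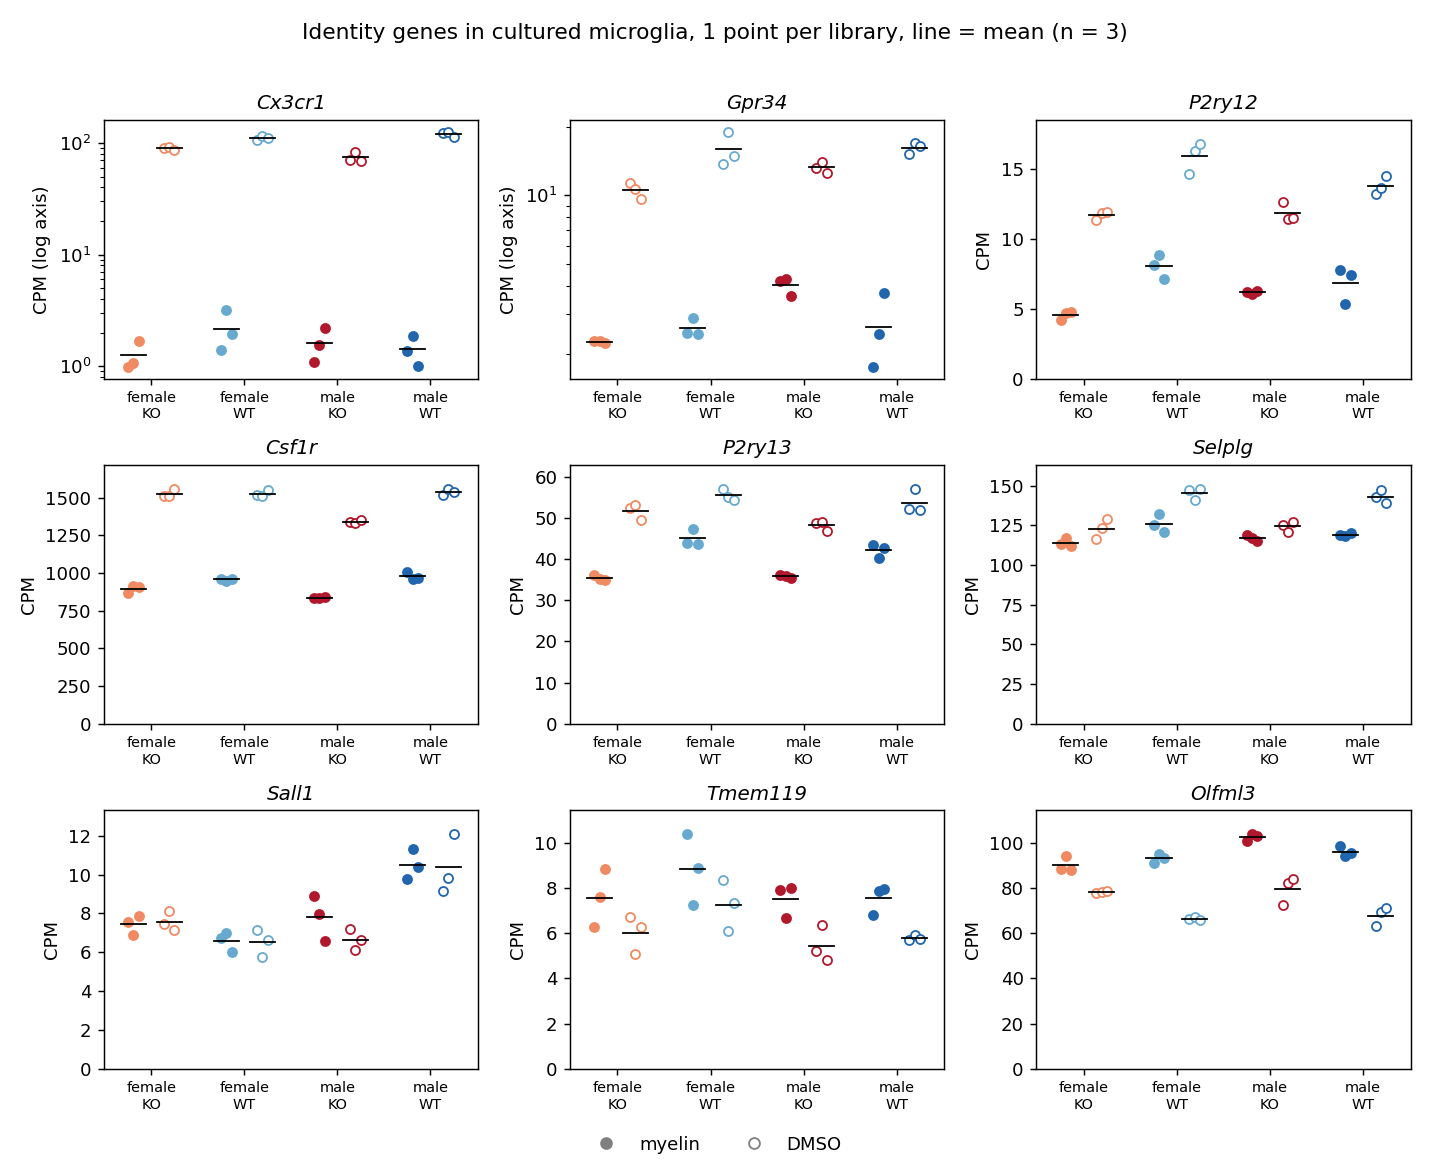
Levels of the 9 identity genes tested in cultured microglia, in CPM (log axis for Cx3cr1 and Gpr34, others from 0), for female KO, female WT, male KO and male WT cultures with myelin (filled) left of DMSO (open). Each point is 1 library and each line the mean of 3; Cx3cr1 stood at 0.989 to 3.19 CPM with myelin and at 68.6 to 126 CPM with DMSO, while Sall1 levels with and without myelin overlapped in each culture.

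The other receptors fell too, each by less. Gpr34 stood at 2.27, 2.27 and 2.22 CPM with myelin and 11.4, 10.7 and 9.66 CPM with DMSO in female KO cultures, and at 2.47, 2.87 and 2.45 CPM with myelin and 13.8, 19.1 and 15 CPM with DMSO in female WT cultures. In male KO cultures it stood at 4.17, 4.28 and 3.59 CPM with myelin and 13.2, 14.1 and 12.6 CPM with DMSO, and in male WT cultures at 1.75, 2.44 and 3.70 CPM with myelin and 15.2, 17 and 16.6 CPM with DMSO. No myelin library reached a DMSO library of its culture. Its log2 fold change was -2.22 ± 0.16 in female KO, -2.62 ± 0.15 in female WT, -1.74 ± 0.14 in male KO and -2.62 ± 0.15 in male WT cultures (SE, n = 3 each), with edgeR adjusted p of at most 2.86e-15. From the lowest fold change up, Gpr34 was in place 48, 35, 118 and 29 of 14468 in those 4 cultures.

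Both ADP receptors fell. P2ry12, through which microglial processes follow ADP, stood at 4.19 to 8.81 CPM in the 12 myelin libraries and 11.3 to 16.8 CPM in the 12 DMSO libraries, with no overlap. Its log2 fold change was -1.36 ± 0.13 in female KO, -0.99 ± 0.11 in female WT, -0.94 ± 0.12 in male KO and -1.01 ± 0.12 in male WT cultures. P2ry13 fell by 0.55 ± 0.05, 0.30 ± 0.05, 0.43 ± 0.06 and 0.35 ± 0.05 on the log2 scale in the same order, and stood at 34.8 to 47.4 CPM with myelin and 46.8 to 57.1 CPM with DMSO, without overlap within a culture. All 8 changes were called, with edgeR adjusted p of at most 3.67e-06. Both genes lie on chromosome 3, P2ry12 at 59216272 to 59262871 and P2ry13 at 59207892 to 59210882, inside Med12l on the other strand, which had 8 to 44 counts a library. Med12l had a log2 fold change with myelin of -1.31 in female KO cultures (edgeR adjusted p = 0.00413). In female WT, male KO and male WT cultures it was -0.0179, -0.475 and -0.486, not called (adjusted p of at least 0.293).

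Csf1r, the receptor on which microglial survival depends, fell in each culture. It stood at 868 to 914 CPM with myelin and 1510 to 1560 CPM with DMSO in female KO, and at 949 to 963 CPM with myelin and 1510 to 1550 CPM with DMSO in female WT cultures. In male KO cultures it stood at 832 to 840 CPM with myelin and 1330 to 1350 CPM with DMSO, and in male WT cultures at 960 to 1010 CPM with myelin and 1520 to 1560 CPM with DMSO. The groups did not overlap. Its log2 fold change was -0.77, -0.67, -0.68 and -0.65 in female KO, female WT, male KO and male WT cultures, each ± 0.03 (SE), with edgeR adjusted p of at most 5.42e-29. Selplg, at 112 to 132 CPM with myelin and 116 to 148 CPM with DMSO over all cultures, changed least among the members that fell. Its log2 fold change was -0.11 ± 0.04 in female KO, where the groups overlapped and leaving out DMSO library 2 or 3 or myelin library 1 ended the call (adjusted p of 0.0603, 0.188 and 0.0719), -0.20 ± 0.04 in female WT and -0.26 ± 0.04 in male WT cultures, and it was not called in male KO cultures at -0.09 ± 0.04 (edgeR adjusted p = 0.0777).

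Sall1, Tmem119 and Olfml3 were not called lower in any culture. Sall1 stood at 6.02 to 11.3 CPM with myelin and 5.76 to 12.1 CPM with DMSO, the groups overlapped in every culture, and its log2 fold changes of -0.03 ± 0.13, 0.02 ± 0.14, 0.22 ± 0.13 and 0.01 ± 0.12 in female KO, female WT, male KO and male WT were not called (edgeR adjusted p of at least 0.2). Tmem119 stood at 6.28 to 10.4 CPM with myelin and 4.80 to 8.34 CPM with DMSO. It rose by 0.46 ± 0.15 on the log2 scale in male KO (edgeR adjusted p = 0.0115) and by 0.38 ± 0.15 in male WT cultures (adjusted p = 0.0385), and was not called at 0.34 ± 0.15 in female KO (adjusted p = 0.0621) and 0.30 ± 0.14 in female WT cultures (adjusted p = 0.0966). The Tmem119 calls rest on 75 to 163 counts a library in the male cultures. The male WT call was lost in 7 of 12 alternative analyses and the male KO call in 2 of 12, with adjusted p up to 0.133 and 0.0664.

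Olfml3 rose in each culture. It stood at 88.2 to 104 CPM in the myelin libraries and 63 to 83.9 CPM in the DMSO libraries, with no overlap. Its log2 fold change was 0.21 ± 0.05 in female KO, 0.49 ± 0.05 in female WT, 0.37 ± 0.05 in male KO and 0.50 ± 0.05 in male WT cultures (SE, n = 3 each), with edgeR adjusted p of at most 0.000181. Siglech gave 0 to 3 counts in each of the 24 culture libraries, at or under the 3 counts taken as the floor, and was not tested there.

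**Figure D2:**
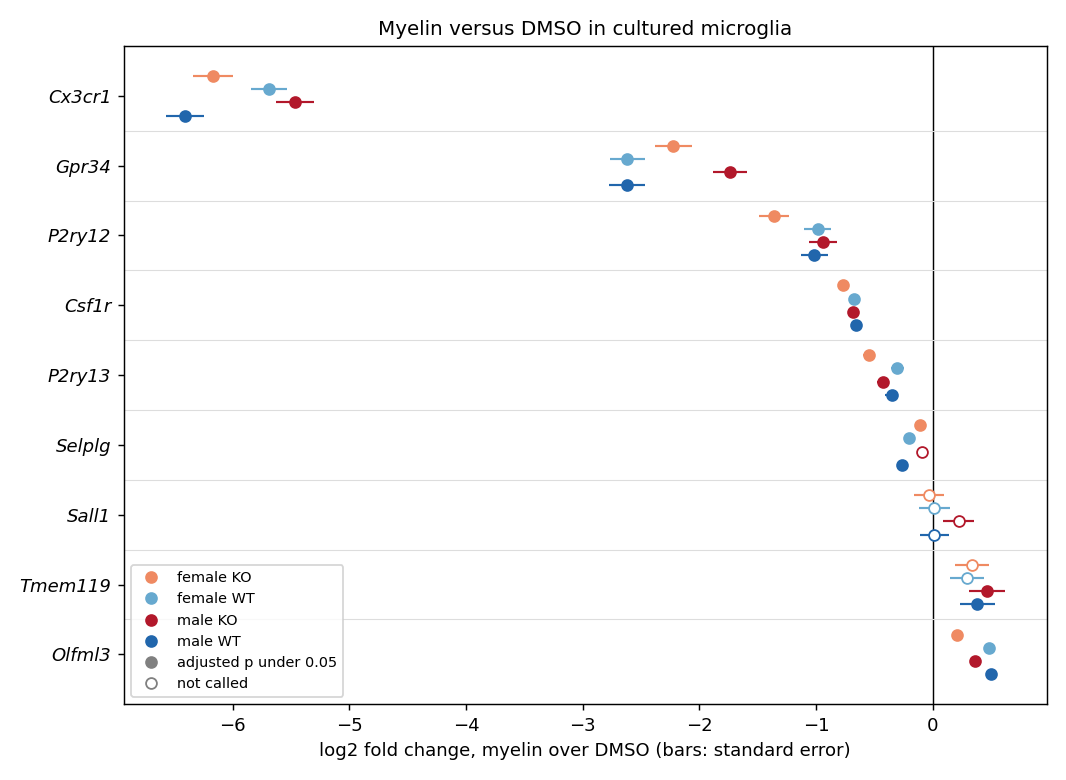
Log2 fold changes, myelin over DMSO, of the 9 identity genes tested, 1 point for each culture with its standard error, filled where called. Cx3cr1 lies between -6.41 and -5.47, Gpr34 between -2.62 and -1.74, and Olfml3 between 0.21 and 0.50.

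Counted over the list, 6 of 9 tested members were lower with myelin in female KO, where 20.4% of all genes tested were called lower, and 1 was higher, where 20.8% were. In female WT 6 were lower against 21.1% of all genes, and 1 higher against 19.3%. In male KO 5 were lower against 20.2%, and 2 higher against 18%. In male WT 6 were lower against 19.4%, and 2 higher against 20%. The median log2 fold change of the 9 was -0.55, -0.30, -0.43 and -0.35 in female KO, female WT, male KO and male WT, and that over all genes lay between -0.01 and 0.01.

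More of the other homeostatic genes fell than rose. Of 25 tested genes in a list of 28 other homeostatic microglia genes, 18, 16, 15 and 15 fell and 2, 4, 2 and 4 rose with myelin in female KO, female WT, male KO and male WT cultures, with median log2 fold changes of -0.41, -0.35, -0.26 and -0.29. Rnase4, a secreted ribonuclease, had a log2 fold change of -1.08, -1.04, -0.93 and -1.13 in that order, and Slco2b1, an organic anion transporter, of -0.81, -1.05, -0.84 and -0.93. These values have an SE of at most 0.094. Microglial transcription factors moved both ways: 9, 10, 8 and 10 of 17 fell and 3, 2, 4 and 2 rose. The macrophage factor Maf fell by 0.76, 0.97, 0.89 and 0.80 on the log2 scale, and Mef2c by 0.75, 0.89, 0.74 and 0.91, each with an SE of at most 0.0512.

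List counts stand beside the 19.4% to 21.1% of all genes that fell and the 18% to 20.8% that rose with myelin in these cultures. TGF-beta pathway genes, tested as a list of 16, fell in 4, 6, 7 and 5 cases and rose in 2, 1, 1 and 1 in the same order of cultures. More fell and fewer rose than the share of all genes would give in a list of this size. Whether that exceeds chance was not tested, and nothing is read from these counts about the pathway. The receptor genes Tgfbr1 and Tgfbr2 were among those that fell, Tgfbr1 by 0.59, 0.45, 0.57 and 0.50 and Tgfbr2 by 0.18, 0.26, 0.18 and 0.21 on the log2 scale. Of 7 tested ligands, enzymes and signalling partners of the identity receptors, 5, 4, 5 and 3 fell and 0, 1, 0 and 0 rose. Csf1, the ligand of Csf1r, fell by 0.45, 0.34, 0.65 and 0.30 on the log2 scale, and Tyrobp, the adaptor of several microglial receptors, by 0.18, 0.28, 0.23 and 0.22. Disease-associated microglia genes, a list of 22, split: 9, 10, 8 and 10 rose and 11, 11, 12 and 11 fell, with Cst7, a cystatin-type protease inhibitor, up by 0.84, 1.27, 0.69 and 1.2 and Ank, a phosphate transporter, down by 0.84, 1.07, 0.88 and 1.08.

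Genes listed as markers of other cells moved with myelin as well, and which cells of the cultures expressed them was not tested. Of 12 blood leukocyte markers 5 passed the filter, and 3, 4, 4 and 4 of them fell while S100a8, a neutrophil calcium-binding protein, rose in each culture. The summed level of the 12 was 618 to 665 CPM with myelin and 2180 to 2520 CPM with DMSO in female KO, 543 to 640 and 2410 to 2610 CPM in female WT, 767 to 803 and 2260 to 2700 CPM in male KO, and 672 to 807 and 2930 to 3060 CPM in male WT cultures. Within it Fn1, which encodes fibronectin, had log2 fold changes of -1.94, -2.18, -1.73 and -2.11, and Ccr2, the chemokine receptor of inflammatory monocytes, of -1.39, -1.65, -1.29 and -1.88, while 4 of the 12 markers, Cd3e, Nkg7, Plac8 and S100a9, were at 0 in all 24 libraries. Among 11 tested of 14 border-associated macrophage markers 6, 7, 7 and 7 fell and 3 rose in each culture, with F13a1, a coagulation factor subunit, at log2 fold changes of -2.85, -3.80, -2.82 and -3.88. Cd209f was at 0 in all 24 libraries, and their summed level was 2440 to 3290 CPM with myelin and 2590 to 3910 CPM with DMSO. Monocytes express Cx3cr1 too, and the part of these cells in its fall was not tested.

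Cell division and myelin genes changed beside them. Of 15 cell cycle genes 13, 15, 12 and 14 fell and none rose with myelin in female KO, female WT, male KO and male WT cultures, with a summed level of 272 to 319 CPM with myelin and 387 to 470 CPM with DMSO. The 10 oligodendrocyte markers summed to 527 to 890 CPM with myelin and 187 to 308 CPM with DMSO, but of the 9 tested 2, 3, 2 and 2 rose and 3, 4, 4 and 1 fell in female KO, female WT, male KO and male WT cultures. Among these myelin protein genes Mobp rose by 6.12, 4.85, 5.82 and 5.09 and Mbp by 2.26, 1.77, 1.77 and 1.80 on the log2 scale, while Mag fell by 0.64, 0.52, 0.62 and 0.59. Whether RNA came with the added myelin was not tested.

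Among the genes whose 8 group means most resembled those of Cx3cr1, each centred on its own mean, were Idi1, Cyp51, Stard4 and F13a1, of 10071 genes with a mean of at least 4 CPM. Their root mean square differences from Cx3cr1 on the log2 scale were 1.13, 1.24, 1.31 and 1.41. Their log2 fold changes with myelin ran from -4.23 to -2.82, so each fell by less than Cx3cr1. Gpr34 was the nearest member, in place 24 of 14467 with a difference of 1.84, followed by P2ry12 in place 250, and Olfml3 was the farthest, in place 12914.

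Cx3cr1 shares its place on chromosome 9, 119901616 to 120069879 in the deposited table, with 9 overlapping genes. Of these Wdr48 held 536 to 857 counts a library and Gorasp1 389 to 614, and their log2 fold changes with myelin lay between -0.21 and 0.07, so neither fell by more than 0.21 on that scale. Gpr34 lies at 13632089 to 13640858 on chromosome X inside Cask, which is on the other strand and fell by 0.28, 0.54, 0.52 and 0.30 on the log2 scale. The sources used here do not say whether reads were counted by strand.

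Several identity genes were lower in KO than in WT cultures, by small amounts. With DMSO, Cx3cr1 had the levels given above, all KO libraries below all WT libraries of the same sex. Of all genes tested there, 26.3% in females and 35.2% in males had no overlap between the genotypes. Cx3cr1 fell by 0.70 ± 0.09 on the log2 scale in male KO cultures (edgeR adjusted p = 1.02e-05) and by 0.30 ± 0.09 in female KO cultures (adjusted p = 0.0367). The female call was lost when any 1 of the 6 libraries was left out, with adjusted p between 0.059 and 0.129. Selplg stood at 116 to 129 CPM in female KO and 141 to 148 CPM in female WT cultures, and at 121 to 127 CPM in male KO and 139 to 147 CPM in male WT cultures with DMSO, with log2 fold changes of -0.24 ± 0.04 in females and -0.20 ± 0.04 in males. Olfml3 rose by 0.23 ± 0.05 in both sexes with DMSO.

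Other DMSO changes were called in 1 sex. In females, P2ry12 fell by 0.45 ± 0.11 on the log2 scale (edgeR adjusted p = 0.00233) and Gpr34 by 0.60 ± 0.12 (adjusted p = 0.000375). In males, Sall1 stood at 7.18, 6.12 and 6.65 CPM in KO and 9.18, 9.84 and 12.1 CPM in WT cultures, without overlap, and fell by 0.64 ± 0.13 on the log2 scale (adjusted p = 0.000139). Csf1r fell by 0.20 ± 0.03 in males (adjusted p = 1.09e-08), and P2ry13 by 0.16 ± 0.05 (adjusted p = 0.0264), a call lost without male WT library 2 (0.208), without male KO library 3 (0.0755) and without the low-count filter (0.0576). In all 4 of 9 tested members were lower in female KO cultures, where 6.48% of all genes were, and 1 higher, where 5.42% were. In male KO cultures 5 were lower against 9.32% of all genes, and 1 higher against 11.6%.

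With myelin, edgeR did not call Cx3cr1 between the genotypes: its log2 fold change, KO over WT, was -0.78 ± 0.34 in females (adjusted p = 0.219) and 0.24 ± 0.35 in males (adjusted p = 0.718), and the groups overlapped in both. DESeq2 (-0.79, adjusted p = 0.0163) and edgeR without the low-count filter (-0.79, adjusted p = 0.0175) called the female difference. P2ry12 stood at 4.19, 4.71 and 4.75 CPM in female KO and 8.11, 8.81 and 7.15 CPM in female WT cultures with myelin, which did not overlap, and fell by 0.82 ± 0.13 on the log2 scale (edgeR adjusted p = 6.27e-06). In that comparison 22.6% of all genes had no overlap. P2ry13 fell by 0.35 ± 0.06 in females and 0.23 ± 0.06 in males, and Csf1r by 0.10 ± 0.03 in females and 0.23 ± 0.03 in males. Selplg fell by 0.15 ± 0.04 in females, and Sall1 by 0.43 ± 0.13 in males. Leaving out single libraries ended the female Csf1r call (without WT library 1 or 3 or KO library 1, adjusted p of 0.0613 to 0.0647), the female Selplg call (without WT library 2, 0.152) and the male Sall1 call (without WT library 2 or KO library 3, 0.0762 and 0.131).

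Gpr34 went the other way in males with myelin. It rose by 0.60 ± 0.18 on the log2 scale in male KO cultures (edgeR adjusted p = 0.0127), although 1 WT library at 3.70 CPM stood above the lowest KO library at 3.59 CPM, and the call was lost without male WT library 1 or 2 or male KO library 2 (adjusted p of 0.14, 0.0559 and 0.056). Of 9 members 4 were lower in female KO cultures with myelin, where 3.48% of all genes were, and none was higher, where 3.8% were. The 5 members at an unadjusted p under 0.05 there, and the 5 that DESeq2 called, were all lower. In male KO cultures with myelin 3 were lower against 10.6% of all genes, and 1 higher against 10.1%.

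**Figure D3:**
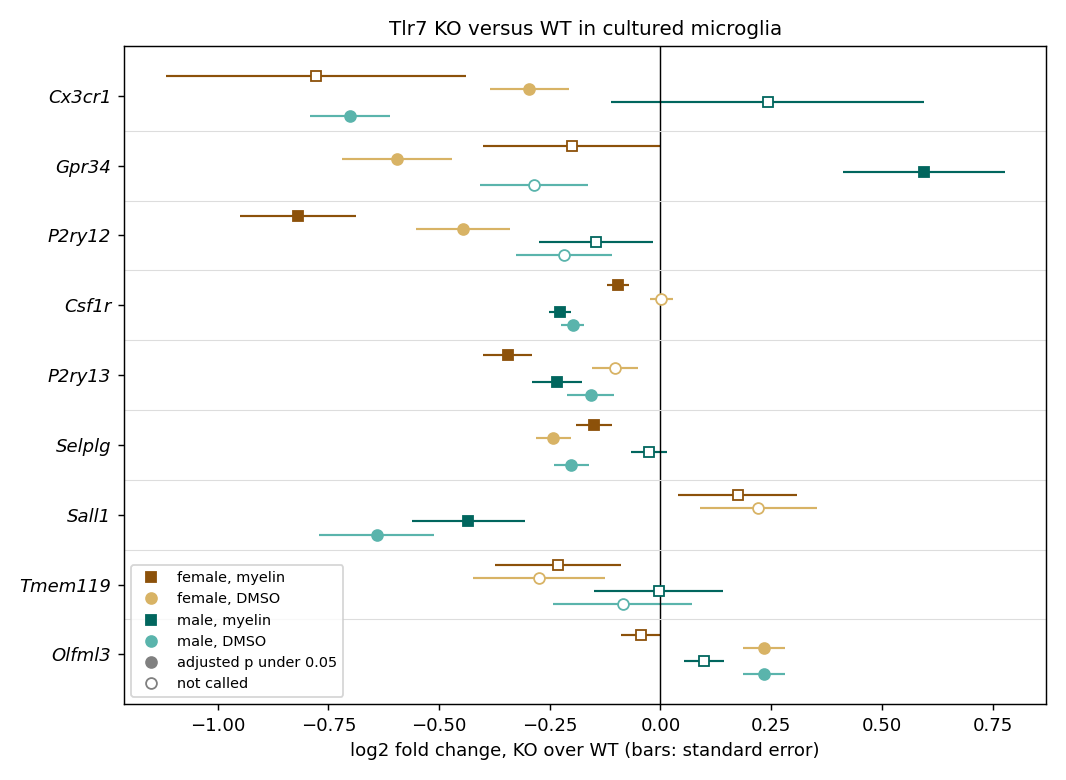
Log2 fold changes, KO over WT, of the 9 identity genes tested in cultures with myelin (squares) or DMSO (circles), with standard errors, filled where called. Most points lie left of 0; Gpr34 in males with myelin, at 0.60, and Olfml3 with DMSO, at 0.23 in both sexes, are the called exceptions.

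Markers of other cells differed between the genotypes too. The summed level of choroid plexus markers was 4.40 to 22.2 CPM in male KO and 128 to 224 CPM in male WT cultures with DMSO, and 45.9 to 536 CPM in female KO and 84.4 to 152 CPM in female WT cultures. Border-associated macrophage markers summed to 2590 to 2710 CPM in female KO and 3490 to 3620 CPM in female WT, and to 2870 to 3170 CPM in male KO and 3640 to 3910 CPM in male WT cultures with DMSO, with 5 of 11 called lower and 0 higher in females, and 2 lower and 2 higher in males. Blood leukocyte markers summed to 2180 to 2520 CPM in female KO and 2410 to 2610 CPM in female WT, and to 2260 to 2700 CPM in male KO and 2930 to 3060 CPM in male WT cultures. Their part in the lower Cx3cr1 was not tested. Of 22 disease-associated genes 10 were higher and 3 lower in female KO, and 15 higher and 2 lower in male KO cultures with DMSO.

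Cx3cr1 fell with myelin in both genotypes. The difference of its log2 response, KO minus WT, was -0.48 ± 0.35 in females (edgeR adjusted p = 0.732) and 0.94 ± 0.37 in males (adjusted p = 0.243). In males DESeq2 (0.96, adjusted p = 0.0047) and edgeR without the low-count filter (0.97, adjusted p = 0.00801) called it. Single libraries moved both values: the female one was -0.11 without female WT myelin library 2, and the male one 0.62 without male KO myelin library 3, and edgeR called neither. The male difference combines a lower DMSO level in KO with myelin levels that overlapped. In females 1 of 9 members was called, against 0.919% of all genes: Olfml3, whose rise with myelin was smaller in KO by 0.28 ± 0.07 on the log2 scale (adjusted p = 0.0188; 0.0517 to 0.0567 without any of 4 libraries in turn). In males 1 of 9 was called, against 2.56% of all genes: Gpr34, whose fall was smaller in KO by 0.88 ± 0.22 (adjusted p = 0.0122), a call lost without male WT myelin library 1 (0.70, adjusted p = 0.0962) and without male KO myelin library 2 (0.83, adjusted p = 0.05).

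Between the sexes, Sall1 was the member that differed in WT cultures. With DMSO it stood at 7.16, 5.76 and 6.64 CPM in female and 9.18, 9.84 and 12.1 CPM in male WT cultures, and with myelin at 6.72, 7 and 6.02 CPM in female and 9.75, 11.3 and 10.4 CPM in male WT cultures. Its log2 difference, female minus male, was -0.67 ± 0.13 both with DMSO (edgeR adjusted p = 0.000498) and with myelin (adjusted p = 0.00059). It was the only one of 9 members called in either, where 3.7% of all genes with DMSO and 2.69% with myelin were called in either direction.

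In KO cultures Sall1 did not pass the test between the sexes. With DMSO 1 of 9 members was called against 9.86% of all genes, Csf1r at 0.19 ± 0.03 higher in females on the log2 scale. Cx3cr1, 0.28 higher in females, was not called in the main edgeR fit (adjusted p = 0.0637). DESeq2 called it (0.00133), as did edgeR without the low-count filter (0.000296), with only the groups compared (0.00496) and with the replicate block (0.0212). EdgeR also called it without male KO library 2 (0.0124), but not without any other single library or with RLE factors. With myelin 4 of 9 were called against 8.45% of all genes: P2ry12 fell by 0.44 ± 0.14, Gpr34 by 0.82 ± 0.18 and Olfml3 by 0.18 ± 0.05 in females relative to males, and Csf1r rose by 0.10 ± 0.03. The P2ry12 call was lost in 5 of 11 alternative analyses and the Csf1r call in 4 of 11, each with adjusted p up to 0.164. The knockout effect itself differed between the sexes with DMSO for 2 of 9 members, Sall1 (0.86 ± 0.19, female minus male, adjusted p = 0.00107) and Csf1r (0.20 ± 0.04, adjusted p = 7.64e-05), against 7.53% of all genes. Cx3cr1 was not called by edgeR in the main fit (0.41 ± 0.13, adjusted p = 0.0609), and was by DESeq2 (adjusted p = 0.000889). EdgeR also called it without the low-count filter (0.000174), with only the groups compared (0.00102) and with the replicate block (0.0181). It did so without male KO library 2 (0.0114), but not without any other single library or with RLE factors. With myelin the knockout effect differed between the sexes for 3 of 9, against 6.51% of all genes: Sall1 (0.61 ± 0.19, adjusted p = 0.0335), Csf1r (0.13 ± 0.04, adjusted p = 0.0185) and P2ry12 (-0.67 ± 0.18, adjusted p = 0.0168). Of 17 alternative analyses 10 lost the Sall1 call and 6 the Csf1r call. The P2ry12 call was lost without male WT or female WT myelin library 2 (edgeR adjusted p of 0.0642 and 0.0534).

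The myelin response was not called different between the sexes for any member. In WT cultures edgeR called 0 of 9, with 0 at an unadjusted p under 0.05 and 0 by DESeq2, against 0.0415% of all genes. In KO cultures edgeR and DESeq2 called 0 of 9, with 4 at an unadjusted p under 0.05, against 0.0553% of all genes. Over all genes that comparison called 8, and 30 or 39 with a replicate block across or within cultures, with 0 members in each. For Cx3cr1 the difference was 0.72 ± 0.35 in WT (adjusted p = 0.925) and -0.71 ± 0.37 in KO cultures (adjusted p = 0.649).

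Set against Csf1r within each library, most other identity genes were counted far less often in culture than in hippocampus. The tables were normalised separately, so only this ratio within a library is compared, as a description. A difference of Csf1r itself between culture and hippocampus would shift every ratio and was not tested. Csf1r itself fell with myelin, which raises the ratios there. Ratios with myelin and with DMSO therefore do not show how a gene's own level changed. Cx3cr1 gave 1.04 to 3.36 counts per 1000 Csf1r counts in cultures with myelin, 50.8 to 81.0 in cultures with DMSO and 535 to 819 in hippocampus. Tmem119 gave 6.76 to 10.8 with myelin, 3.36 to 5.51 with DMSO and 224 to 380 in hippocampus, Sall1 6.25 to 11.8, 3.82 to 7.84 and 228 to 371, and P2ry12 4.83 to 9.28, 7.49 to 10.8 and 272 to 603. Gpr34 gave 1.74 to 5.12 with myelin, 6.18 to 12.6 with DMSO and 120 to 280 in hippocampus. P2ry13 gave 31.7 to 50 over all cultures and 89.9 to 169 in hippocampus, and Selplg 76.9 to 143 and 243 to 389. Siglech gave at most 0.201 per 1000 in culture and 130 to 310 in hippocampus.

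Hippocampus also holds other cells that use some of these genes, Sall1 and Olfml3 among them, and the share of microglia in these counts was not measured. The ratio of Olfml3 was 95 to 124 with myelin and 41.5 to 62.1 with DMSO, and 181 to 322 in hippocampus.

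**Figure D4:**
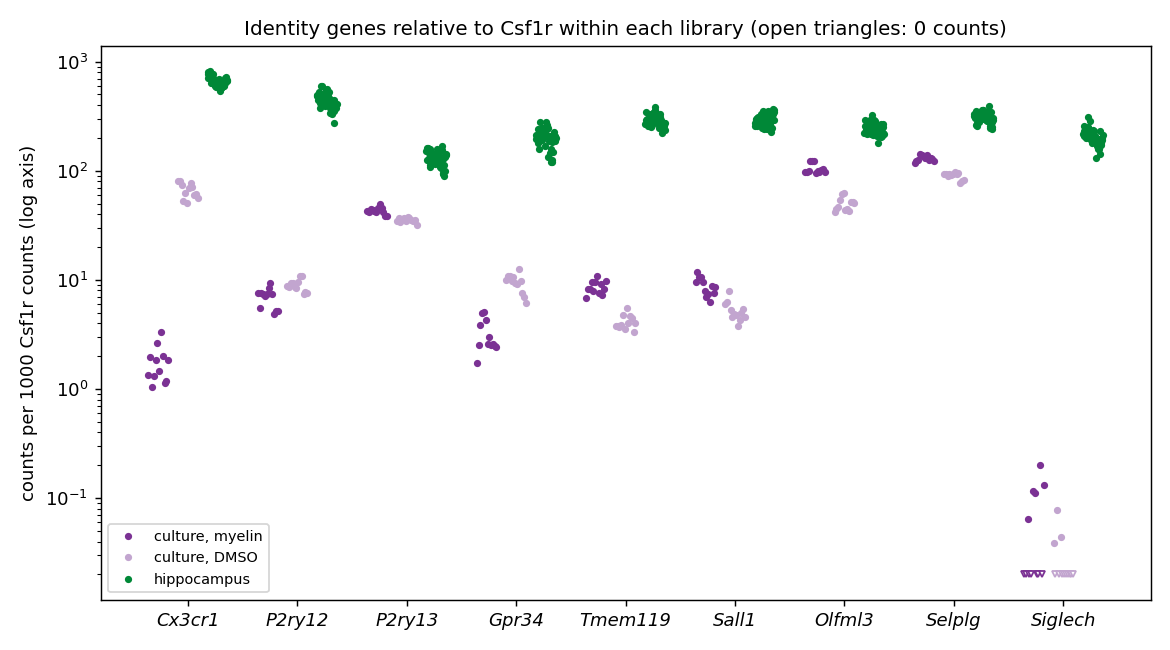
Counts of 9 identity genes per 1000 Csf1r counts in the same library, on a log axis, for 12 cultures with myelin, 12 cultures with DMSO and 45 hippocampi; open triangles mark libraries with 0 counts. Cx3cr1 falls to between 1.04 and 3.36 with myelin, against 50.8 to 81.0 with DMSO, and Siglech is at or near 0 in culture but lies between 130 and 310 in hippocampus.

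No identity gene was called in the hippocampus after the TLR7 agonist. Cx3cr1 stood at 48.8 to 68.4 CPM (median 55.7) in female Gardiquimod mice and 50.2 to 68.8 CPM (median 54.8) in female saline mice, and at 56.8 to 70.7 CPM (median 62.3) in male Gardiquimod mice and 59.5 to 78.7 CPM (median 71.4) in male saline mice. The groups overlapped. Its log2 fold change was 0.03 ± 0.08 in females (95% interval -0.12 to 0.18) and -0.14 ± 0.08 in males (-0.29 to 0.00656).

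P2ry12 and Siglech levels overlapped likewise. P2ry12 stood at 35.4 to 46.9 CPM (median 45.4) in female Gardiquimod and 31.8 to 44 CPM (median 36.7) in female saline mice, and at 33.9 to 49.7 CPM (median 43.3) in male Gardiquimod and 36.2 to 51.2 CPM (median 42.4) in male saline mice. Siglech, at the floor in culture, stood at 16.8 to 21.0 CPM in female Gardiquimod and 16.4 to 23.1 CPM in female saline mice, and at 17.8 to 25.6 CPM in male Gardiquimod and 17.3 to 21.9 CPM in male saline mice. The groups of all 10 members overlapped in both sexes, and 0.0871% of all genes in females and 0.308% in males had no overlap.

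In females edgeR called 0 of 10 members, with 1 (P2ry12, 0.20 ± 0.09) at an unadjusted p under 0.05 and 0 by DESeq2, against 0.0232% of all 17218 genes. In males it called 0 of 10, with 0 unadjusted and 0 by DESeq2, against 0.221% of all genes. As an average of both sexes it called 0 of 10, with 0 unadjusted and 0 by DESeq2, against 0.215% of all genes, and every member's interval lay within -0.193 and 0.229 on the log2 scale. The response did not differ between the sexes for any of 10 by edgeR or DESeq2, with 1 (P2ry13) at an unadjusted p under 0.05, against 0.00581% of all genes.

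Outside the members, 1 of 28 other homeostatic genes, Ctss, a lysosomal protease, was called higher with Gardiquimod as an average of both sexes (0.21 ± 0.05, adjusted p = 0.0365), as was 1 of 19 tested disease-associated genes, Clec7a, a beta-glucan receptor (0.85 ± 0.18, adjusted p = 0.0216). In saline mice Cx3cr1 was -0.30 ± 0.08 on the log2 scale in females relative to males (edgeR adjusted p = 0.0775). EdgeR called 0 of 10 members there, with 2 at an unadjusted p under 0.05, DESeq2 called 1, Cx3cr1 (adjusted p = 0.0355), edgeR called it without male saline library 3 (0.037) or female saline library 7 (0.0163), and 0.43% of all genes were called. The females were also younger.

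In PSUK+ hippocampi the TLR7 inhibitor gave no called change of an identity gene within a sex. Cx3cr1 stood at 34.8 to 60.3 CPM (median 55.4) in 5 female inhibitor and 53.0 to 57.1 CPM (median 55.3) in 3 female control mice, and at 57.7 to 65.2 CPM (median 62.1) in 6 male inhibitor and 36.6 to 50 CPM (median 47.8) in 3 male control mice. Only the male groups did not overlap, at a log2 fold change of 0.47 ± 0.14 (edgeR adjusted p = 0.19; 0.0433 when only the male groups were fitted). Of all genes, 10.7% had no overlap between the male groups. In females edgeR and DESeq2 called 0 of 10, with 1 at an unadjusted p under 0.05, against 0.0876% of all 17128 genes. In males both called 0 of 10, with 2 at an unadjusted p under 0.05, against 0.105% of all genes. As an average of both sexes both called 0 of 10, with 0 at an unadjusted p under 0.05, against 0.0117% of all genes. Between female and male control mice both called 0 of 10, with 2 at an unadjusted p under 0.05, against 0.0642% of all genes.

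The response of Sall1 to the inhibitor differed between the sexes. Sall1 stood at 18.9, 13.7, 26.2, 22.6 and 21.4 CPM in female inhibitor and 27.7, 31.6 and 31 CPM in female control mice. In males its level was 25.5 to 33.8 CPM (median 30.6) in 6 inhibitor and 25.4, 22.9 and 18.7 CPM in 3 control mice. The groups did not overlap in either sex, which held for 6.19% of all genes in females and 10.7% in males. The difference of the log2 response, female minus male, was -0.99 ± 0.22 (edgeR adjusted p = 0.0296), and Sall1 was the only one of 10 members called, where 2.41% of all genes were. Within a sex its log2 fold change was -0.55 ± 0.16 in females (adjusted p = 0.194) and 0.44 ± 0.16 in males (adjusted p = 0.211). The call of the difference was lost without any 1 of 7 libraries (female control 2 or 3, male control 2 or 3, female inhibitor 1, male inhibitor 2 or 6), with adjusted p of 0.0514 to 0.103. DESeq2 called 2, adding Cx3cr1 (-0.59, adjusted p = 0.0452).

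Markers of other cells also differed among these groups, and not all in the direction of Sall1. The summed level of 9 astrocyte markers was 2900 to 10800 CPM in female inhibitor and 6810 to 11100 CPM in female control mice, and 9600 to 13300 CPM in male inhibitor and 3870 to 8410 CPM in male control mice. Choroid plexus markers summed to 3680 to 4710 CPM in female inhibitor and 39.3 to 1590 CPM in female control mice, and to 88.1 to 4680 CPM in male inhibitor and 3390 to 3560 CPM in male control mice. Male control library 3 and female inhibitor libraries 1 and 2, with astrocyte sums under 5000 CPM, had mitochondrial shares of 3.31%, 4.62% and 3.49%, and the other 14 libraries 4.89% to 15.7%. Without these 3, the Sall1 difference was -0.68 (edgeR adjusted p = 0.121) and 33 genes were called in the comparison in place of 413. Male inhibitor libraries 1 and 2 held 11.1 and 3.27 CPM of the female-specific RNA Xist, against at most 0.367 CPM in the other male libraries, and without them the Sall1 difference was -0.94 (adjusted p = 0.0799). The part of these differences in the Sall1 values was not tested.

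**Figure D5:**
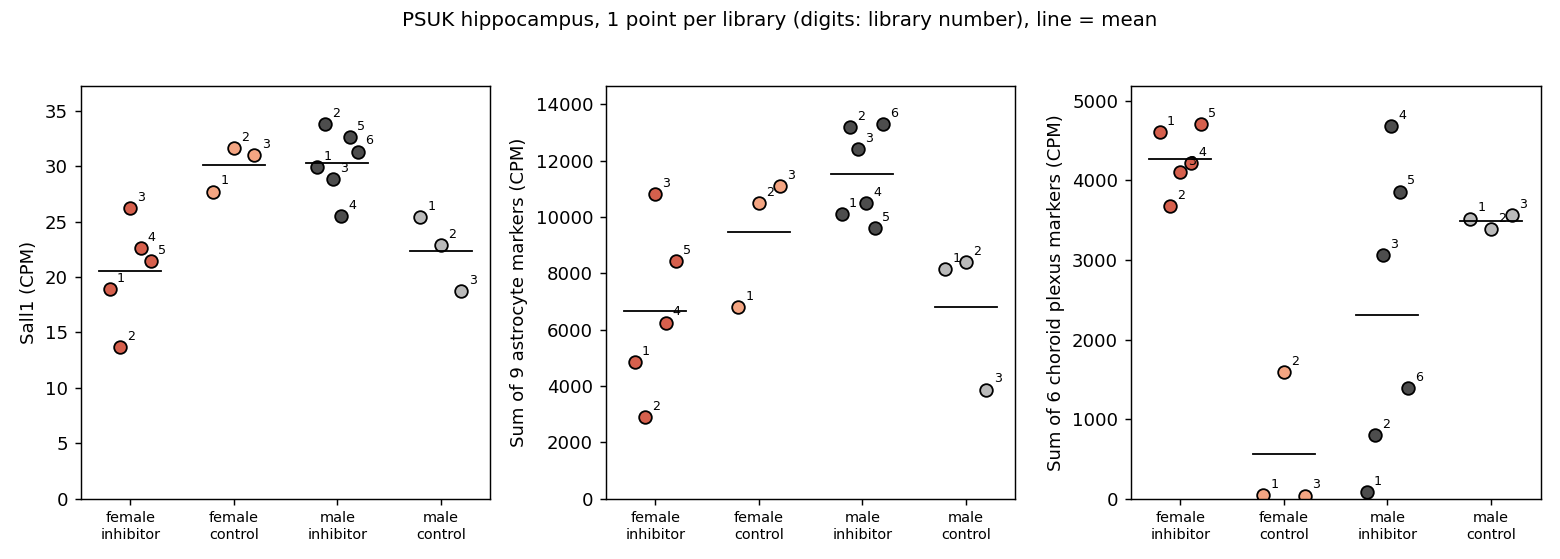
Sall1 level, summed level of 9 astrocyte markers and summed level of 6 choroid plexus markers, all in CPM, in PSUK+ hippocampi of female inhibitor, female control, male inhibitor and male control mice; each point is 1 library with its number and each line the mean. Sall1 and the astrocyte sum are both low in male control library 3 and female inhibitor libraries 1 and 2.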

How the data were processed

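RNA was measured by 3′ sequencing (QuantSeq 3′ FWD, per the labels) in 24 culture and 45 hippocampus libraries. The authors deposited raw read counts per gene in 3 tables, one per experiment. Builds GRCm38 and mm10 and DESeq2 1.38.3 are named per the submitters' processing notes; the aligner, counter, strand setting and annotation version were not given in the sources used here. Each table was normalised by itself.

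Genes passing edgeR's low-count filter were fitted with 1 mean per group by the quasi-likelihood test (edgeR 4.0.16, limma 3.58.1, R 4.3.3; TMM scaling), with adjusted p over all genes tested and calls under 0.05. Alternatives were RLE factors, no filter, DESeq2 1.42.0, only the groups compared, each library left out, a replicate block, age as a covariate, and 2 sets of libraries left out that were chosen after seeing the data. The pipeline was tested on simulated data. Depth was 14332532 to 23477906 counts a library, and no 2 replicates agreed within sampling noise.

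Named were all 10 members, per list at most 3 genes called in all 4 myelin comparisons with the largest mean change (or called in the average of sexes), the 5 genes most like Cx3cr1 and genes overlapping a member; a few genes under this rule are not reported here. Members and lists were chosen with earlier results of these data known. Same-numbered myelin and DMSO libraries deviated together in female KO cultures (r of 0.442, 0.214 and 0.116), although DMSO library 3 correlated best with myelin library 2 (0.277), and in none of the other 3 cultures (r of -0.0581 to 0.0456); blocked values are given where they change a count. Siglech in culture was not tested.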

Additional observations from a re-analysis of the deposited data

Results flagged for a closer look

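Each member was screened in each hippocampal group of 4 to 10 libraries, which made 60 sets of values that share libraries. Groups of 3, and so all cultures, were not screened. In 2 of the 60 sets 1 library stood far from the rest, where chance alone gives about 1 in 20, so the number of flags is not above chance. P2ry12 was 35.4 CPM in female Gardiquimod library 5, and 42.1 to 46.9 CPM in the other 6. Tmem119 was 14.2 CPM in female inhibitor library 2, the library with the lowest astrocyte marker sum (2900 CPM) and pan-microglia marker sum (90.1 CPM) of the experiment, and 21.1 to 23.2 CPM in the other 4.

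A difference between genotypes in the myelin response was called for Gpr34 in males (0.88 on the log2 scale, KO minus WT) and for Olfml3 in females (-0.28). A difference between the sexes in the knockout effect, female minus male, was called with DMSO for Csf1r (0.20) and Sall1 (0.86), and with myelin for P2ry12 (-0.67), Csf1r (0.13) and Sall1 (0.61). A difference between the sexes in the inhibitor response was called for Sall1 (-0.99). Tests and limits of these 8 differences are given with the comparisons above.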

How the results depend on the processing

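No log2 fold change of a member reversed among called values. Of 262 member results, 63 were called and 46 of these were called in every alternative; of 199 not called, 183 were called in none. The calls of Cx3cr1, Gpr34, P2ry12, P2ry13, Csf1r and Olfml3 with myelin held in all 12 alternatives in each culture. Low counts limit the precision of Cx3cr1 with myelin (16 to 51 a library) and of Tmem119 (75 to 194).

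Counts moved as follows, with the reported count in brackets. Identity genes called for the genotype difference in males numbered 2 with RLE factors, 3 with no filter and 2 with DESeq2 (1), and in females 2 with DESeq2 (1). Female against male KO with DMSO gave 2 identity genes with no filter, DESeq2, only the groups compared and the replicate block (1), and WT with DMSO gave 2 with only the groups compared (1). Female against male WT with myelin gave 647 genes with only the groups compared (389). The sex difference of the myelin response in KO gave 88 genes with no filter, 54 with DESeq2, 2 with only the groups compared, 30 with the replicate block and 39 with the block within sex and genotype (8). Same-numbered libraries of a culture correlated over 0.1 in all 3 pairs of female KO and in 0 of 9 pairs of the other cultures. With the block, 7 members were called for myelin in female KO as without it, and the block changed no other count by over 1.5 times. No paired analysis was possible in hippocampus because its replicate numbers only name libraries.

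Gardiquimod gave 1 gene in females with no filter and 14 with DESeq2 (4), 254 in males with DESeq2 and 19 with only the groups compared (38), and 9 and 153 for the sex difference with no filter and DESeq2 (1). Saline mice gave 124 genes between the sexes, 1 of them an identity gene, with DESeq2 (74 and 0). The inhibitor gave 202 genes in males with DESeq2, 329 with only the groups compared, 1 of them an identity gene, 2 without the Xist-trace libraries and 4 without the low-astrocyte libraries (18). In females it gave 173, 0, 8 and 9 genes with DESeq2, only the groups compared, age as covariate and no low-astrocyte libraries (15), and on average 6 with DESeq2 and 1 without Xist-trace libraries (2). Its sex difference gave 273 genes with no filter, 1631 with DESeq2, 48 without Xist-trace and 33 without low-astrocyte libraries (413), with 2 identity genes in DESeq2 and 0 in both library sets (1). Control mice gave 46, 5 and 7 genes between the sexes with DESeq2, only the groups compared and no low-astrocyte libraries (11). The cause of these moves was not tested.

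Leaving out each library gave, for genes called: female against male 281 to 486 (536) in WT with DMSO, 213 to 298 (389) in WT with myelin, 873 to 1363 (1426) in KO with DMSO and 536 to 1502 (1223) in KO with myelin; sex difference of the knockout effect with myelin 625 to 1326 (942), of the myelin response 3 to 6 (6) in WT and 0 to 21 (8) in KO; genotype difference in females 73 to 156 (133). In hippocampus it gave 7 to 329 (38) and 0 to 10 (4) with Gardiquimod in males and females, 1 to 35 (1) for its sex difference, 47 to 84 (74) in saline mice, 1 to 18 (18), 0 to 93 (15) and 1 to 4 (2) with the inhibitor in males, females and on average, 25 to 2500 (413) for its sex difference and 6 to 23 (11) in control mice. For identity genes it gave 0 to 2 (1) and 0 to 1 (1) for the genotype difference in males and females, 2 to 4 (4) for KO against WT males with myelin, 1 to 3 (3) for the sex difference of the knockout effect with myelin, 1 to 2 (1) and 2 to 3 (4) between KO sexes with DMSO and myelin, 0 to 1 (0) in saline mice and 0 to 2 (1) for the inhibitor sex difference.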
